A study of Mus musculus with 8 samples.

Results

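The 10 genes described here encode the core of the focal adhesion, the plaque that couples integrins in the cell membrane to actin filaments. They are the kindlins Fermt1, Fermt2 and Fermt3, the talins Tln1 and Tln2, vinculin (Vcl), paxillin (Pxn), zyxin (Zyx), integrin-linked kinase (Ilk) and alpha-parvin (Parva), chosen by name. Each symbol had 1 row in a table of 55471 genes, and all 10 were among the 13818 genes tested. Fermt1 passed the filter on low counts through its TGFβ1-treated libraries alone.

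RNA was measured in SV-LECs, a single line of mouse lymphatic endothelial cells from mesenteric adventitial tissue that was immortalized with SV40, a genotype shared by both groups. The untreated group (Nontreated in the labels) and the group given 10 ng/ml TGFβ1 for 72 h held 4 libraries each, 8 in all. The study's methods call the samples of a group technical replicates, so p-values refer to the spread between such samples and not between independent cultures.

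Talin and kindlin bind the cytoplasmic tail of beta integrins and together switch the receptor to its ligand-binding state. Talin is stretched by actin flow and opens binding sites for vinculin, paxillin recruits signalling proteins to the young adhesion, and zyxin enters later, when the adhesion is under tension. Integrin-linked kinase is a pseudokinase that joins PINCH and parvin in a complex which binds kindlin and paxillin on one side and actin on the other. Fibroblasts and endothelial cells mainly use kindlin-2 (Fermt2), epithelial cells kindlin-1 (Fermt1) and blood cells kindlin-3 (Fermt3).

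The libraries held between 18952504 and 26386941 counts. Levels are given in CPM, for a group as mean ± SD with n = 4, and a log2 fold change is given ± its SE. CPM, the counts of a gene per 1000000 counts of its library, was computed with library sizes scaled by TMM, which allows for differences in composition between libraries. The endothelial label was only partly borne out by marker RNA. Of 7 lymphatic endothelial markers 4 stayed at 3 counts or fewer in every library, among them Prox1 (0 counts untreated, 0 to 2 treated) and Lyve1 (0 to 3 and 0 counts), and the summed level of the list, 344 to 382 CPM untreated and 337 to 348 CPM treated, came almost wholly from Pdpn. Flt4, which encodes the receptor VEGFR3, rose from 21.6 ± 1.23 to 29.3 ± 0.407 CPM. Pdpn fell from 342 ± 19.5 to 313 ± 5.25 CPM, and Mmrn1 had 9 to 15 counts untreated and 0 to 2 treated. The general endothelial markers Pecam1 (1 to 3 and 3 to 5 counts) and Cdh5 (0 to 1 and 0 to 2 counts) were near 0, and Erg and Tie1 were at 0 in all libraries. The summed level of the 9 general endothelial markers was nonetheless 76.4 to 83.7 CPM untreated and 166 to 176 CPM treated. It came mostly from Eng, a TGFβ co-receptor (62 ± 3.69 to 143 ± 3.81 CPM), and Kdr (11.6 ± 0.548 to 22.1 ± 0.761 CPM). Of the others tested, Egfl7 was lower (5.83 ± 0.328 to 4.79 ± 0.837 CPM, with overlapping libraries) and Tek was not called. Mural cell markers summed to 895 to 959 CPM untreated and 2201 to 2315 CPM treated. At an FDR under 0.05, 7 of 7 tested mural markers were higher, beside 37.6% of all genes tested. Myh11, counted among these, passed the filter on low counts only by way of its treated libraries, so its direction followed from that filter. In such bulk RNA a change in the cells present and a change in RNA per cell cannot be told apart.

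TGFβ1 moved the focal adhesion core in both directions and, Fermt1 apart, by small steps. The talins, Parva, Pxn and Ilk were higher, Zyx and Vcl were lower, Fermt2 was lower by a margin that did not hold in every fit, and Fermt1 went from 0 counts to a low level. At an FDR under 0.05 (edgeR likelihood ratio test, Benjamini-Hochberg over all genes tested), TGFβ1-treated cells had more RNA of 5 of the 9 members other than Fermt1 and less of 3, and Fermt3 did not pass. Among all genes tested, 75.6% were called, 37.6% higher and 38.0% lower, so that a call alone sets no member apart. The median log2 fold change of the 9 members other than Fermt1 was 0.23 and the median of its absolute value 0.24, against -0.01 and 0.39 over all genes. These 9 lay between the 32.9th percentile (Zyx) and the 77.3rd (Tln2) of the log2 fold changes of all genes.

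**Figure D1:**
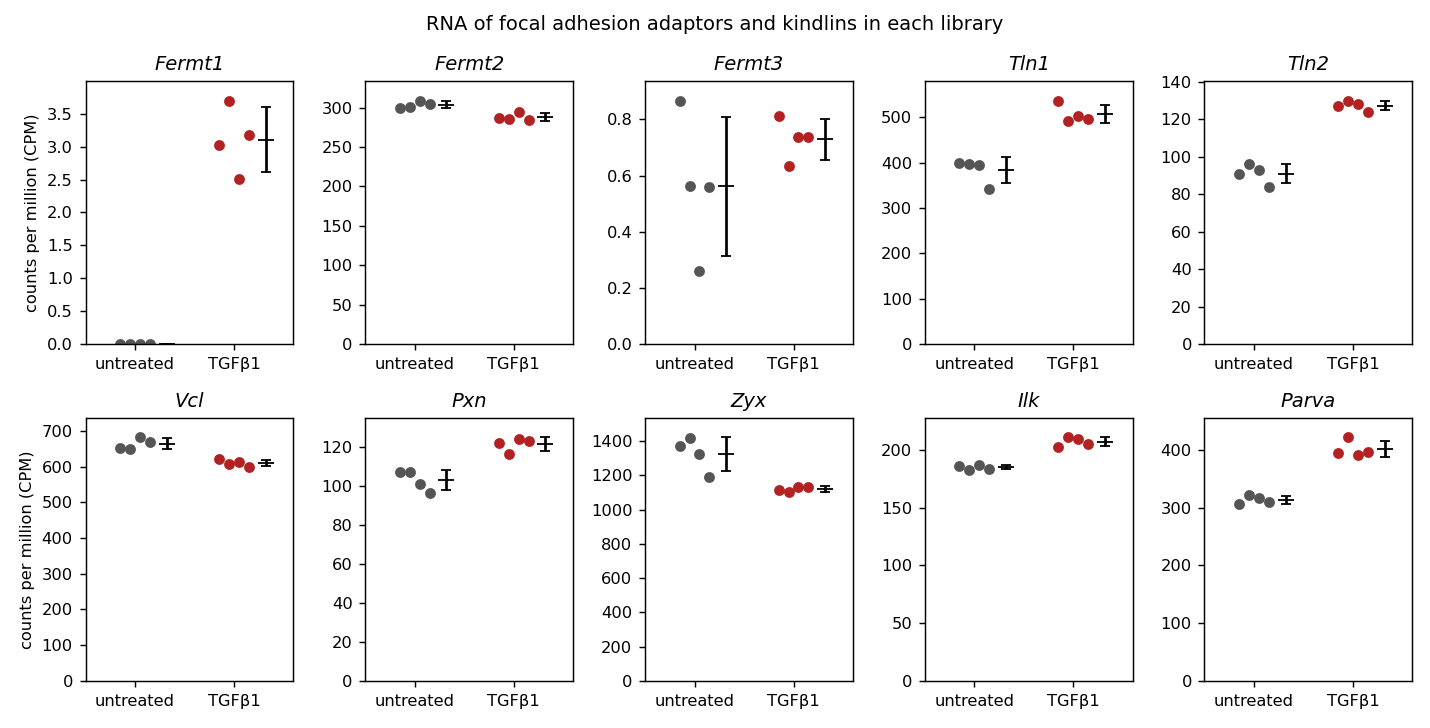
CPM of each of the 10 genes in the 4 untreated (grey) and 4 TGFβ1-treated (red) libraries, with the mean and SD beside the points and each vertical axis starting at 0. The libraries of the groups overlap for Fermt3 alone, and only Fermt1 goes from 0 to a measured level.

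The libraries of the 2 groups did not overlap for 8 of the 9 members other than Fermt1, beside 69.8% of all genes tested. Untreated replicate 4 was the lowest untreated library for 4 of the 9 members with untreated counts, Tln1, Tln2, Pxn and Zyx, and it was the lowest for 29.4% of all genes tested. Without it the log2 fold changes of Tln1, Tln2 and Pxn were smaller and that of Zyx further below 0, and none of the 4 lost its call.

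Fermt1 (ENSMUSG00000027356), the kindlin of keratinocytes and gut epithelium, was not detected without TGFβ1 and was measurable with it. It had 0 counts in each of the 4 untreated libraries, and 56, 76, 51 and 82 counts, or 3.03, 3.7, 2.51 and 3.18 CPM, in TGFβ1 replicates 1 to 4. All treated libraries were above all untreated ones. Against a floor of 3 counts per untreated library, on average 0.135 CPM, the treated mean of 3.11 ± 0.49 CPM was at least 23.0-fold higher. The lowest treated library was 16.5-fold above the highest untreated floor. These ratios are given as a description with no test, since the gene entered the fit through its treated libraries. Epithelial markers were measured beside it, since Fermt1 is an epithelial gene. Their summed level over 7 genes was 34.2 to 40.7 CPM untreated and 38.2 to 45.3 CPM treated, which was almost all Krt14. Krt8 rose from 0.273 ± 0.179 to 1.11 ± 0.246 CPM and Krt18 from 0.226 ± 0.142 to 1.24 ± 0.432 CPM, Krt14 was not called, and Epcam had 0 to 3 counts untreated and 1 to 7 treated. Their part in the Fermt1 result was not tested.

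Fermt2 (ENSMUSG00000037712), the kindlin of mesenchymal and endothelial cells, was the main kindlin in both groups. It was at 300, 301, 309 and 305 CPM in untreated replicates 1 to 4 and at 287, 285, 295 and 284 CPM in the treated ones. Every treated library was below every untreated one, by a small margin. The log2 fold change was -0.08 ± 0.0364 (SE, 95% interval -0.15 to -0.01), with an edgeR FDR of 0.0454. That call was lost with DESeq2's size factors (edgeR FDR 0.0807) and when any one of 6 of the 8 libraries was left out, with an edgeR FDR of up to 0.126, and it was kept by edgeR's quasi-likelihood test (FDR 0.0285), without a filter on low counts (-0.11, edgeR FDR 0.0265) and with total-count scaling (-0.14, edgeR FDR 0.000143).

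Fermt3 (ENSMUSG00000024965), the kindlin of platelets and leukocytes, was scarcely detected. It had 18, 15, 6 and 11 counts in untreated and 15, 13, 15 and 19 counts in treated replicates 1 to 4, and the groups overlapped. Its log2 fold change of 0.39 ± 0.292 had a 95% interval from -0.19 to 0.96 (edgeR FDR 0.216), an interval too wide at this depth to give a direction. The blood cell markers Ptprc and Itgam had at most 1 and 3 counts in any library and Pf4 had 0. The whole list of 8 summed to 13.6 to 14.9 CPM untreated and 30.8 to 33.6 CPM treated. Of these markers 3 of 3 tested were higher (Cd68, Itga2b and Csf1r), beside 37.6% of all genes tested. Csf1r passed the filter on low counts through its treated libraries alone, so its direction was fixed by that filter. The part of this list in the Fermt3 counts was not tested.

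Both talins rose. Tln1 (ENSMUSG00000028465), the talin present in nearly all cells, was at 399, 398, 396 and 342 CPM untreated and at 537, 491, 504 and 497 CPM treated. Untreated replicate 4 stood apart from its group, yet even the highest untreated library was below the lowest treated one. The log2 fold change was 0.40 ± 0.054 (edgeR FDR 3.94e-13), and 0.35 without untreated replicate 4. Tln2 (ENSMUSG00000052698), the talin best known from striated muscle and brain, was at 90.8, 96.2, 92.8 and 83.9 CPM untreated and at 127, 130, 128 and 124 CPM treated. Its groups were also apart, with a log2 fold change of 0.48 ± 0.0485 (edgeR FDR 1.43e-22), the highest of the 9 members for which one was fitted. Of talin RNA per kb of exon, Tln2 made up 11.2% ± 0.329 untreated and 11.8% ± 0.5 treated, and this difference of 0.584 percentage points did not pass a two-sided exact permutation test (p = 0.114, smallest possible p 0.0286 with 4 against 4 libraries).

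**Figure D2:**
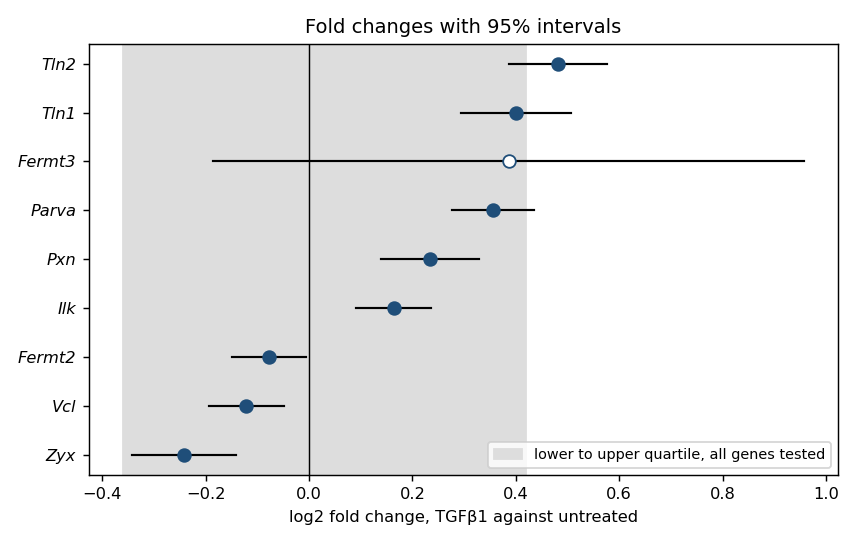
Log2 fold change of TGFβ1-treated against untreated SV-LECs for 9 members, as points with 95% intervals, filled where the FDR was under 0.05 and open for Fermt3. The grey band runs from the lower to the upper quartile of all genes tested, -0.36 to 0.42, and of these members only Tln2 has its point outside it. Fermt1 is left out because its untreated counts were all 0.

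Vinculin and zyxin fell while paxillin rose. Vcl (ENSMUSG00000021823), which binds stretched talin and reinforces its link to actin, was at 652, 650, 682 and 670 CPM untreated and at 620, 607, 612 and 600 CPM treated. All treated libraries were lower, and the log2 fold change was -0.12 ± 0.0367 (edgeR FDR 0.00149), and -0.19 with total-count scaling. Zyx (ENSMUSG00000029860), a LIM protein that senses stretched actin and brings VASP family proteins to it, was at 1368, 1415, 1326 and 1188 CPM untreated and at 1114, 1100, 1133 and 1130 CPM treated. It fell by 15.5% (log2 fold change -0.24 ± 0.0514, edgeR FDR 4.76e-06), the largest decrease among the members. The untreated libraries were the more scattered group, with an SD of 97.8 CPM against 15.5 CPM. Pxn (ENSMUSG00000029528), a scaffold that is phosphorylated by FAK and Src, was at 107, 107, 101 and 96.3 CPM untreated and at 122, 116, 124 and 123 CPM treated. Its groups were apart, with a log2 fold change of 0.23 ± 0.0484 (edgeR FDR 2.7e-06).

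Ilk and Parva both rose, Parva by more. Ilk (ENSMUSG00000030890) was the least scattered member in untreated cells, at 186, 183, 187 and 184 CPM untreated and 203, 211, 210 and 205 CPM treated. The groups were apart although the step was small, a log2 fold change of 0.16 ± 0.037 (edgeR FDR 1.71e-05) that was 0.10 with total-count scaling (edgeR FDR 0.0126). Parva (ENSMUSG00000030770), which carries the actin-binding end of the complex, was at 306, 322, 317 and 310 CPM untreated and at 395, 422, 392 and 397 CPM treated, a log2 fold change of 0.36 ± 0.0404 (edgeR FDR 5.1e-18). The log2 ratio of Ilk to Parva per kb of exon was 1.13 ± 0.0404 untreated and 0.935 ± 0.0398 treated. This difference of -0.192 had the smallest p that 4 against 4 libraries allow (two-sided exact permutation test, p = 0.0286). That p was not adjusted for the other shares examined.

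The partners of this complex did not move as one. Lims1, the widely expressed PINCH that holds Ilk and Rsu1 together, was at 335 ± 9.56 CPM untreated and 256 ± 8.85 CPM treated, a log2 fold change of -0.39 ± 0.0415 (edgeR FDR 6.71e-20), opposite in sign to Ilk and Parva. Lims2, the second PINCH gene, rose from 3.27 ± 0.908 to 5.43 ± 1.21 CPM and remained far below Lims1. Rsu1, which binds PINCH, rose from 88.2 ± 4.04 to 104 ± 4.5 CPM, and Nck2, an adaptor that binds PINCH, was not called (28.4 ± 1.16 and 27.5 ± 2.22 CPM). Of the 5 partners tested, 3 were higher, 1 was lower and 1 was not called, beside 37.6% higher and 38.0% lower among all genes tested. Parvb, counted among the 3 higher, passed the filter on low counts through its treated libraries alone, so its direction was fixed by that filter. Parvb, the parvin of heart and skeletal muscle, rose from 1 to 5 counts in the untreated libraries to 13 to 21 in the treated ones, and the blood cell parvin Parvg had 0 counts untreated and 0 to 2 treated.

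**Figure D3:**
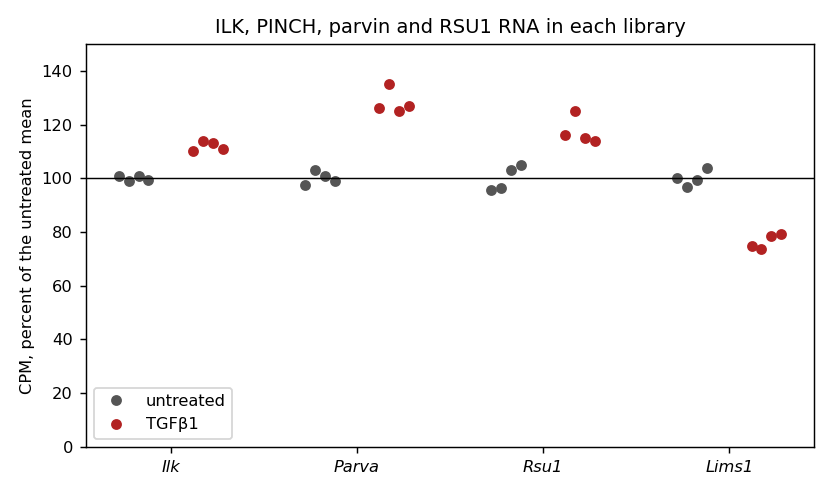
CPM of Ilk, Parva, Rsu1 and Lims1 in each library as a percent of that gene's untreated mean (line at 100), grey for untreated and red for TGFβ1-treated. Treated libraries lie at 110 to 114 for Ilk, 125 to 135 for Parva and 114 to 125 for Rsu1, and at 73.8 to 79.1 for Lims1.

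The dominant paralogs stayed dominant. Fermt2 supplied 99.83% of kindlin RNA per kb of exon in untreated and 98.8% in treated cells, and Parva 99.9% and 99.53% of parvin RNA. Most of the remainder in treated cells was Fermt1 and Parvb, so that these differences, -1.03 and -0.363 percentage points, restate the counts of those genes and are given with no test.

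Levels were compared between genes as CPM per kb of the union of a gene's exons. In untreated SV-LECs Zyx led with 246 CPM per kb, followed by Vcl (81.0), Ilk (67.5), Fermt2 (58.5), Tln1 (39.2), Parva (30.9), Pxn (12.6), Tln2 (4.95) and Fermt3 (0.0973), and the libraries of neighbours in this order did not overlap. In treated cells Zyx still led with 208 CPM per kb, Ilk (75.6) and Vcl (74.5) overlapped, as did Fermt2 (55.4) and Tln1 (51.7), and Parva (39.6), Pxn (14.8), Tln2 (6.93), Fermt1 (0.545) and Fermt3 (0.126) followed. With the longest transcript as the length, an alternative chosen after seeing the data, Vcl was above Ilk and Parva above Tln1 in both groups, and Fermt2 was above Ilk in untreated cells. The lead of Zyx and the last places of Pxn, Tln2 and the minor kindlins were common to both lengths.

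**Figure D4:**
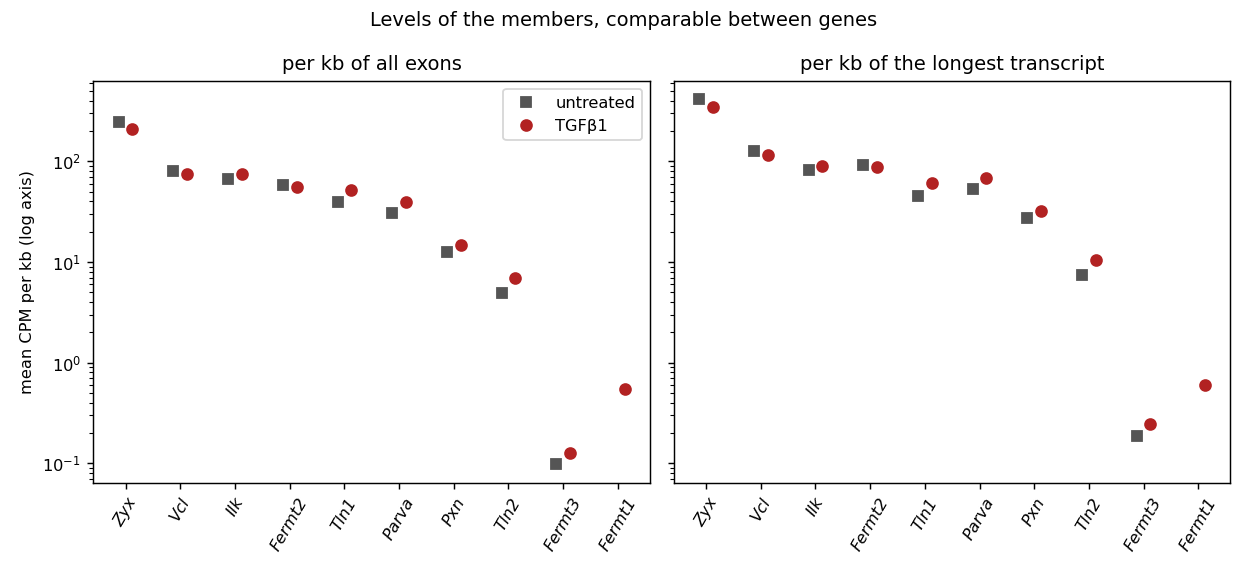
Mean level of each member per kb, on a log axis, in untreated (grey squares) and TGFβ1-treated (red circles) SV-LECs, with all exons as the length on the left and the longest transcript on the right. Zyx is highest on both sides, and Fermt1 has no untreated point because its level there was 0.

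Parts of 4 members, over 1% of their length, share transcribed sequence with another gene. The reads came from a stranded kit, but whether they were counted by strand is not given in the sources used here. Of the 75-base stretches of Ilk, 51.6% lie opposite Taf10 (38 ± 1.92 CPM untreated, 35.8 ± 1.88 CPM treated) and 4.69% opposite Rrp8, and 3.05% also occur in the pseudogene Gm6263, which had at most 1.12 CPM. None of these 3 genes was called, and each had a mean level below that of Ilk. The part of the shared sequence in the Ilk counts was not tested. Of Vcl, 24.9% lies opposite Ap3m1 (88.7 ± 2.73 and 85.1 ± 1.91 CPM, not called). Of Tln1, 2.88% lies opposite Creb3, which rose by 0.33 on the log2 scale from 77 ± 4.01 to 97 ± 2.69 CPM, and of Zyx, 1.51% lies opposite Epha1. Fermt1, Fermt2 and Pxn shared no such stretch.

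On GRCm38 Fermt1 lies on chromosome 2 (132904389 to 132945906, minus strand), Fermt2 on chromosome 14 (45458795 to 45530118, minus), Fermt3 on chromosome 19 (6998958 to 7019469, minus), Tln1 on chromosome 4 (43531519 to 43562691, minus) and Tln2 on chromosome 9 (67217087 to 67559703, minus). Vcl lies on chromosome 14 (20929398 to 21033676, plus), Pxn on chromosome 5 (115506676 to 115555987, plus), Zyx on chromosome 6 (42349630 to 42360213, plus), and Ilk (105736592 to 105742925, plus) and Parva (112427505 to 112591692, plus) on chromosome 7. Fermt2 and Vcl are thus on the same chromosome, as are Ilk and Parva.

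Promoter windows from RefSeq (GRCm38.p6, 250 bases before to 50 after the start) were found for 7 of the 10 members, 8 windows in all since Ilk has a pair. Vinculin and zyxin are textbook targets of serum response factor, which binds the CArG box, so 4 motifs were searched on both strands: the CArG box, the AP-1 site TGANTCA, the TEAD site GGAATG and the GC box GGGCGG. The CArG box was present in 1.63% of 32851 promoter windows of the same length and in 2 of the 8 member windows, those of Vcl and Fermt2. The TEAD site (14.7% of all windows) was in that of Vcl, the AP-1 site (7.81%) in that of Zyx and the GC box (35.7%) in 5 of the 8. The windows of Vcl and Fermt2, the pair with a CArG box, and of Fermt1, the member with 0 untreated counts, are printed below. They run 5′ to 3′ on the strand of the gene, with CArG and TEAD letters in capitals. Those of Vcl and Fermt1 are printed up to the RefSeq start. That of Fermt2 stops earlier, at the start of the gene in GENCODE. They cover chr14:20929148-20929397 (plus strand) for Vcl, chr14:45530119-45530315 (minus) for Fermt2 and chr2:132946037-132946286 (minus) for Fermt1.
Vcl: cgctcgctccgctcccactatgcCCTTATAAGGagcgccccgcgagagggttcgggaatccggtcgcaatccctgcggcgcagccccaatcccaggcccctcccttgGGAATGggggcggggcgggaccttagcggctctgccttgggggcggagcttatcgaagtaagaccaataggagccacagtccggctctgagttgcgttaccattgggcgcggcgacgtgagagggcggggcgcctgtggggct
Fermt2: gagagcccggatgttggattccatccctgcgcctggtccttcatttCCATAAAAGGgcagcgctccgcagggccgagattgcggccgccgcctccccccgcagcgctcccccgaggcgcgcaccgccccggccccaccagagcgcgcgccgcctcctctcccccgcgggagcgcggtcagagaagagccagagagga
Fermt1: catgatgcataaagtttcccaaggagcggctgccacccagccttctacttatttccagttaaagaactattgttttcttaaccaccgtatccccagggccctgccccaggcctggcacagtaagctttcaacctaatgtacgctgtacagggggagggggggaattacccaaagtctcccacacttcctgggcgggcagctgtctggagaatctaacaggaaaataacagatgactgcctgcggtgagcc

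The CArG box began 227 bases before the RefSeq start in Vcl and 204 bases before it in Fermt2, where the printed letters stop short of that start. The TEAD site began 143 bases before the RefSeq start in Vcl, with no overlap with the CArG box. The RNA of both genes with a CArG box in this window was slightly lower, for Fermt2 by a margin that did not hold in every fit. Fermt1 held none of the capitalised motifs. Its window had 1.67 CpG per 100 bases, against 12.3 in Fermt2, 10 in Vcl and 1 in Fermt3, with a median of 2.33 over all windows. A match is a run of letters and not a measured binding site. Of serum response factor and its cofactors, 3 of 3 tested were higher, beside 37.6% of all genes tested. Srf rose from 38.7 ± 4.29 to 52.5 ± 3.77 CPM, Mrtfa from 63.4 ± 4.28 to 104 ± 3.98 CPM and Mrtfb from 36.8 ± 1.07 to 53.3 ± 4.28 CPM.

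Other genes of the adhesion plaque were counted from 7 lists drawn up by known function. Over these lists, 76 of 82 genes were tested, 52 were higher, 15 were lower and 9 were not called. The called share was 88.2%, beside 75.6% of all genes tested, with 37.6% higher and 38.0% lower. The median log2 fold change was 0.29. The median absolute value was 0.48, against 0.39 over all genes and 0.24 over 9 members. Parvb and Itgb7, counted among the higher genes, passed the filter on low counts through their treated libraries alone.

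Actin linkers, which connect the plaque to filaments and cross-link them, rose in 13 of 14 cases, beside 37.6% of all genes tested. Their median log2 fold change was 0.61. Synpo2, an actin bundling protein, rose from 1.8 ± 0.136 to 7.38 ± 0.926 CPM. Evl, a VASP family protein and binding partner of zyxin, was the exception and fell from 105 ± 3.16 to 63.9 ± 1.8 CPM. Among LIM proteins and tensins, 11 of 14 were higher and 2 lower (median 0.37), beside 37.6% and 38.0% of all genes tested. Tns1, a tensin of mature fibrillar adhesions, rose from 324 ± 15.6 to 946 ± 30.6 CPM, Fhl2 from 31.4 ± 1.96 to 70.7 ± 3.42 CPM, and Tgfb1i1 (Hic-5), the paxillin paralog, from 43.3 ± 2.36 to 94.8 ± 3.3 CPM. The LIM proteins Trip6 (123 ± 6.32 to 97.5 ± 3.3 CPM) and Ajuba (169 ± 10.8 to 144 ± 11.8 CPM) fell.

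Of 18 genes of FAK and Src signalling, the tyrosine kinase arm that acts on paxillin, 10 were higher, 2 were lower and 6 were not called (median 0.18), a called share of 66.7% beside 75.6% of all genes. Ptk2, which encodes FAK, rose from 118 ± 5.14 to 243 ± 9.04 CPM, its paralog Ptk2b (PYK2) from 62.1 ± 4.89 to 190 ± 11.2 CPM and Arhgef6, an exchange factor for Rac, from 2.88 ± 0.245 to 8.8 ± 0.854 CPM. The Src family kinases went in both directions. Yes1 (114 ± 2.93 to 80.4 ± 4.41 CPM) and Fyn (77.5 ± 1.85 to 59.3 ± 2.25 CPM) fell, and Src itself, named here after its values were seen, rose from 88.4 ± 0.889 to 130 ± 2.73 CPM.

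The list of integrin activation regulators was the only one with more genes called lower than higher. Of 15 tested, 8 were lower and 6 higher, with a median of -0.19, beside 38.0% lower and 37.6% higher among all genes tested. The KANK proteins, which bind talin and bring microtubules to the adhesion rim, went in both directions. Kank4 fell from 15.1 ± 0.53 to 1.51 ± 0.299 CPM and Kank1 from 166 ± 4.54 to 95.7 ± 2.65 CPM, whereas Kank3 rose from 18.1 ± 1.37 to 56.6 ± 1.2 CPM. Fblim1 (migfilin), which binds filamin and kindlin, rose from 43.4 ± 2.19 to 70.8 ± 2.3 CPM.

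The list of all integrin beta subunits, not limited to those that talin and kindlin bind, had the highest median, 1.73. In it 6 of 7 tested were higher, beside 37.6% of all genes tested. Itgb4, the subunit of hemidesmosomes, rose from 41.9 ± 2.69 to 220 ± 9.96 CPM, and Itgb7, a leukocyte subunit, from 0 to 4 counts to 23 to 32 counts. Itgb7 passed the filter on low counts through its treated libraries alone, so its direction was fixed by that filter. Itgb8, a subunit that binds latent TGFβ, fell from 46.2 ± 2.32 to 5.91 ± 1.43 CPM.

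**Figure D5:**
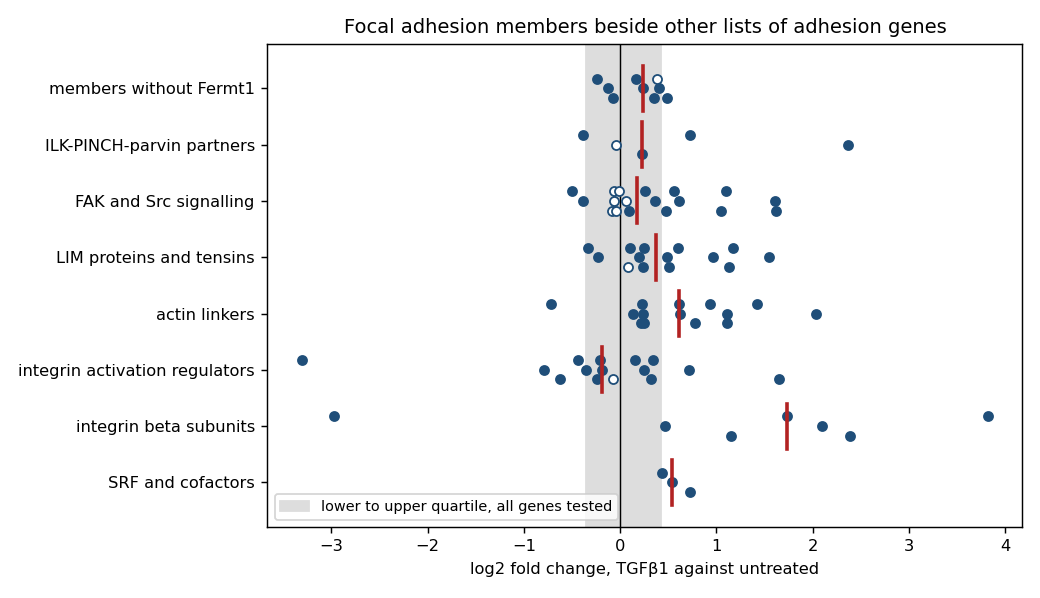
Log2 fold changes, TGFβ1-treated against untreated, of 9 members and of the genes tested from 7 adhesion lists, filled where the FDR was under 0.05 and open otherwise, with a red line at the median of each list. The grey band spans the lower to upper quartile of all genes tested, and the 9 members stay close to it while list medians range from -0.19 to 1.73.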

How the data were processed

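RNA from 8 samples of SV-LECs was sequenced as single reads of 75 bases from a stranded poly(A) kit. Per the labels and the submitters' processing notes, the authors used bcl2fastq 2.20.0.422, STAR 2.7.3a, featureCounts 1.5.1 and GRCm38, and deposited raw counts per gene. The annotation release and strand setting are not given in the sources used here.

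The untreated and treated groups were compared with edgeR 4.0.16 in R 4.3.3 (filterByExpr, TMM, glmFit, glmLRT) and Benjamini-Hochberg FDRs over 13818 genes, at 0.05. Libraries were grouped by their labels. Alternatives were edgeR's quasi-likelihood test, DESeq2 1.42.0, other scalings and filters, a replicate block, and each library left out. The share of Tln2 among talins and the ratio of Ilk to Parva were tested by exact permutation. Lengths, positions and shared 75-base stretches came from GENCODE M21. Samples of one group differed by more than counting error, with chi-square values per degree of freedom between 2.37 and 7.84. The fits were tested on simulated data. Floors and intervals of counts cover counting error only.

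The members and lists were chosen with earlier results of these data known. Named genes are the members, their paralogs and direct partners, and in each list up to 2 called genes with the highest and 2 with the lowest log2 fold change. A few results that this rule would name are not reported here. No protein sequences were used.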

Additional observations from a re-analysis of the deposited data

Results flagged for a closer look

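In 27 sets of 4 libraries examined by Dixon's ratio (the gap of the most distant library to its neighbour over the range), 2 passed the 95% critical value, and chance alone gives about 1 in 20. Tln1 in untreated cells had a ratio of 0.949, because replicate 4 was at 342 CPM while the others were at 396 to 399 CPM. Parva in TGFβ1-treated cells had a ratio of 0.843, because replicate 2 was at 422 CPM while the others were at 392 to 397 CPM. Without the library in question the log2 fold changes were 0.35 for Tln1 and 0.33 for Parva, and both genes were still called by edgeR's likelihood ratio test.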

How the results depend on the processing

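Fermt2 was the only member whose call depended on the processing. Its log2 fold change was -0.07 with DESeq2's size factors in edgeR (FDR 0.0807), -0.06 when at least 1 CPM was asked of at least 4 libraries (FDR 0.099, a filter that also removed Fermt3), and -0.08 with the replicate block (FDR 0.0948). The call was also lost without untreated replicate 2, 3 or 4 or TGFβ1 replicate 1, 2 or 4, with values between -0.09 and -0.07 over all libraries left out. No other member gained or lost a call or changed sign under any alternative run. With one library left out, Tln1 ranged from 0.35 to 0.42, Tln2 from 0.44 to 0.51, Vcl from -0.14 to -0.11, Pxn from 0.20 to 0.26, Zyx from -0.29 to -0.21, Ilk from 0.15 to 0.17, Parva from 0.33 to 0.37 and Fermt3 from 0.15 to 0.65, and the lower bound for Fermt1 from 21.5-fold to 24.5-fold. Members called lower numbered 2 to 3 of 10. The groups did not overlap for 9 to 10 members, beside 69.8% of all genes tested with all 8 libraries kept. That count includes Fermt1, which passed the filter through its treated libraries alone. The differences in shares and in the ratio of Ilk to Parva kept their sign, although with 3 against 4 libraries an exact permutation p cannot fall below 0.0571. The replicate numbers did not pair the libraries (correlations of same-numbered libraries -0.103, -0.0594, -0.0336 and -0.193), and the replicate block called 10152 genes against 10449 without it. Total-count scaling moved the median gene by -0.067 on the log2 scale, and with it Ilk from 0.16 to 0.10, Vcl from -0.12 to -0.19 and Fermt2 from -0.08 to -0.14, which kept their calls. It moved the adhesion list calls from 52 higher and 15 lower to 48 higher and 20 lower. Counts as low as those of Fermt3 allow no direction at this depth.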

Other observations

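Of the 82 listed genes, 6 were left out of the test for low counts, and their counts are given as values. Lpxn (leupaxin), the paxillin paralog of leukocytes, had 2 to 6 counts in the untreated libraries and 6 to 17 in the treated ones. Tns4, a tensin that lacks the actin-binding part of the others, had 8 to 22 counts untreated and 1 to 7 treated. Itgb6, an epithelial integrin subunit that binds latent TGFβ, had 0 counts untreated and 0 to 3 treated. Parvg had 0 counts untreated and 0 to 2 treated, Sorbs2 0 to 2 and 0 to 3, and Myocd, the muscle-specific cofactor of serum response factor, 0 to 1 in both groups.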
